A study of Mus musculus with 4 samples.

Results

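Aminoacyl-tRNA synthetase genes were followed in 4 mRNA-sequencing libraries of mouse oocytes. The 36 genes were chosen by symbol, as 20 that encode cytosolic enzymes and 16 that encode mitochondrial enzymes (symbols ending in 2), out of 23309 gene symbols in the deposited tables. Each was found on 1 row of every table. The study asked how the decay of maternal mRNA in the egg depends on ERK, the kinase at the end of the oocyte's MAPK cascade, per the title of the series. The groups were Erk-/- oocytes at MII, wild-type oocytes at MII, Erk-/- oocytes at GV and wild-type oocytes at GV, with 1 library each. GV is the germinal vesicle stage, before meiosis resumes, and MII is the metaphase arrest of the mature egg. All groups were of the ICR strain, each library was made from 60 oocytes or embryos lysed together, and the females were 21 to 23 days old. The females' protocol names the gonadotropins PMSG and hCG. It also names Btg4-/- rather than Erk-/- females, so the genotypes here rest on the sample titles and genotype labels. The labels give neither the ERK gene that was deleted nor the cells in which it was removed.

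Aminoacyl-tRNA synthetases join each amino acid to its own tRNA and so supply the ribosome. Most amino acids have one enzyme for the cytosol and a second, also encoded in the nucleus, that is imported into mitochondria. Gars and Kars each encode both forms from one gene. In animal cells several cytosolic enzymes are held together with 3 scaffold proteins in a multisynthetase complex. The fully grown oocyte makes almost no new mRNA, so that these messages, like others, are stored at GV and are kept or removed as the cell matures.

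The libraries carried oocyte mRNA. All 14 oocyte markers were above 0 in every library, with 6.91 FPKM or more in the MII library labelled Erk-/- and 2.10 FPKM or more in wild-type MII. Of 14 granulosa and cumulus markers, 8, 10, 11 and 10 were listed at 0 in MII labelled Erk-/-, MII wild type, GV Erk-/- and GV wild type, and their sums were 14.7, 24.9, 29.4 and 28.9 FPKM. Amh, Fshr and Foxl2 were at 0 throughout. The highest of the 14 was Cyp19a1 in MII labelled Erk-/- (10.8 FPKM), MII wild type (21.8 FPKM) and GV wild type (15.5 FPKM). In GV Erk-/- it was Nr5a2 (17.0 FPKM), which was above 0 in every library. Of 12 markers of other ovarian and blood cells, 10 or 11 were at 0, and the rest was almost all Pecam1, an adhesion molecule of endothelium (64.3, 48.6, 42.9 and 25.6 FPKM in the same order). Mapk3, which encodes ERK1, had 52.3 FPKM in Erk-/- GV against 333 FPKM in wild-type GV, but 34.3 FPKM in the MII library labelled Erk-/- against 25.7 FPKM in wild-type MII. The whole-gene value therefore does not go with the label at MII, and that library is called "labelled Erk-/-" wherever a direction rests on it. The width of the authors' confidence bounds put depth, relative to wild-type GV, between 0.808 in GV Erk-/- and 1.03 in MII wild type. With 1 library per group no difference has a replicate check or a test.

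At GV the family was led by cytosolic genes. FPKM, the unit of the deposited tables, is scaled to transcript length and library size, so levels can be set side by side between genes. Qars, the glutaminyl enzyme (chr9:108410336-108418272, mm9, the build of the deposited loci), had 180 FPKM in Erk-/- GV and 238 FPKM in wild-type GV, the highest of the 36 in both. Farsb, the beta subunit of the phenylalanyl enzyme, followed with 140 and 150 FPKM. Iars (isoleucine) had 82.2 and 122 FPKM and Rars (arginine, chr11:35621883-35648030) 116 and 98.4 FPKM. At MII the order was different, with Lars2, the mitochondrial leucyl enzyme (chr9:123276058-123371782), first (224 FPKM in the library labelled Erk-/-, 173 FPKM in wild type) and Farsb second (136 and 107 FPKM). Qars was at rank 6 and rank 10 there, and Rars at rank 11 and rank 14.

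Mitochondrial enzymes were mostly low. Their median was 0.386 FPKM in MII labelled Erk-/-, 0.162 in MII wild type, 0.629 in GV Erk-/- and 2.63 in GV wild type, against 6.97, 6.27, 27.6 and 34.1 FPKM for the cytosolic genes. Lars2 and Fars2 (phenylalanine) were the only mitochondrial members with a mean of at least 10 FPKM over the 4 libraries. Hars2 was listed at 0 in all of them. Mars2 and Nars2 were listed at 0 in both GV libraries and reached 0.765 and 0.0252 FPKM in MII labelled Erk-/- and 1.20 and 0.664 FPKM in MII wild type. Iars2 had 0.509, 0.262, a listed 0 and 1.45 FPKM, and Wars2 a listed 0, 0.439, 1.19 and 0.516 FPKM, in the order MII labelled Erk-/-, MII wild type, GV Erk-/- and GV wild type. Yars, the tyrosyl enzyme, was the lowest cytosolic gene by mean, with a listed 0, 0.0326, 0.0431 and 2.49 FPKM. In all, 12 of 16 mitochondrial and 4 of 20 cytosolic genes were listed at 0 in some library, and an exact 0 can be a failed estimate. For the 13 amino acids with one gene of each kind, the cytosolic gene had the higher level in 9 pairs in MII labelled Erk-/-, 9 in MII wild type, 10 in GV Erk-/- and 12 in GV wild type. The leucine pair was the other way round in every library, with Lars at 5.24, 5.77, 4.62 and 10.3 FPKM beside Lars2 at 224, 173, 38.3 and 34.7 FPKM.

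**Figure D1:**
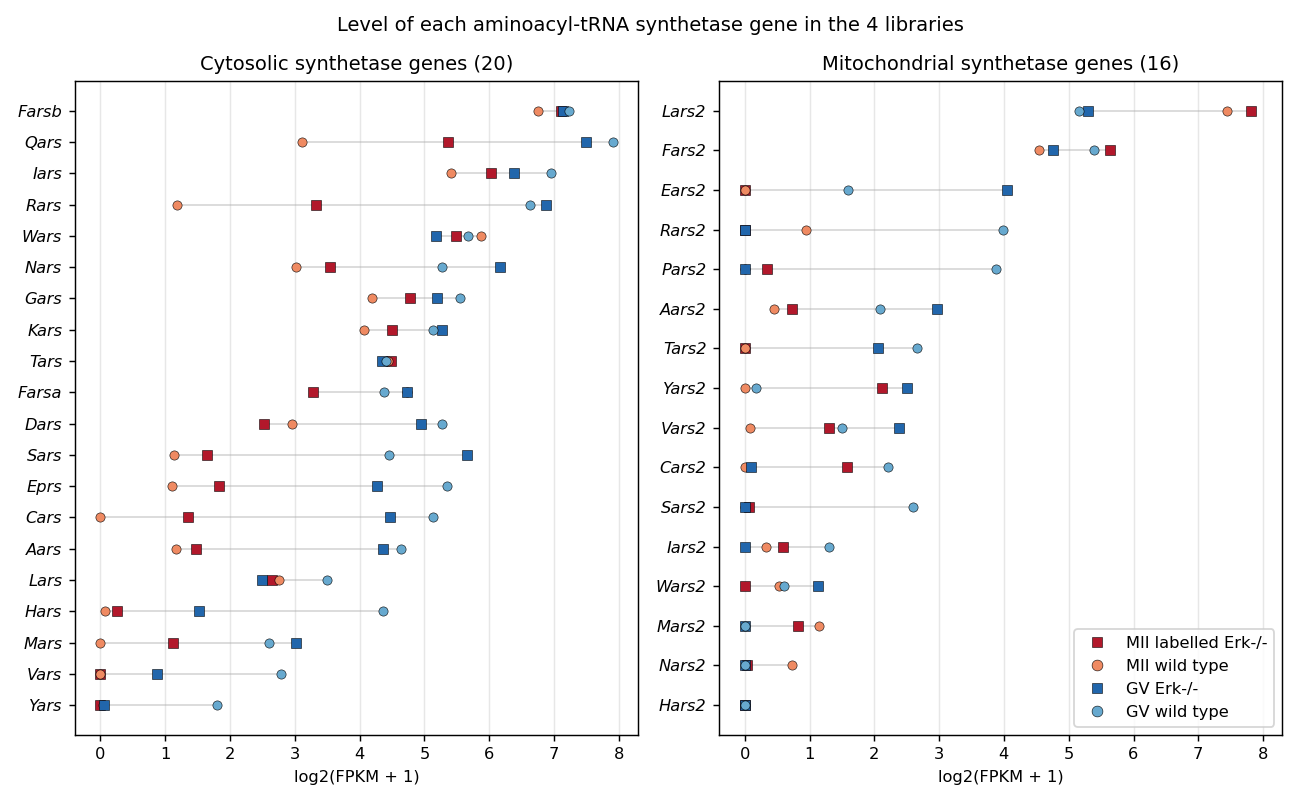
Level of every synthetase gene, as log2(FPKM + 1) on the x axis, for 20 cytosolic genes (left) and 16 mitochondrial genes (right), ordered by mean level; squares are libraries labelled Erk-/- and circles wild type, red for MII and blue for GV, and equal values lie on top of each other. Most cytosolic genes have the MII points left of the GV points, Farsb and Tars have all 4 close together, and Lars2 has both MII points (224 and 173 FPKM) right of both GV points (38.3 and 34.7 FPKM).

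Summed over genes, the cytosolic set held 402 FPKM in MII labelled Erk-/-, 317 in MII wild type, 895 in GV Erk-/- and 1015 in GV wild type. The 16 mitochondrial genes held 282, 199, 100.2 and 127 FPKM in the same order. Lars2 made up 79.6% and 86.8% of the mitochondrial sum at MII, in the library labelled Erk-/- and in wild type, against 38.2% in Erk-/- GV and 27.2% in wild-type GV, where Fars2 held more (32.1%). Without Lars2 the mitochondrial sum was 57.6, 26.3, 61.9 and 92.8 FPKM. So the mitochondrial sum was higher at MII in both genotypes, while the sum of the other 15 genes was at 93.1% of the GV level in the libraries labelled Erk-/- and at 28.4% in wild type. FPKM is relative to each library's total, so that a change in a message and a change in the total mRNA of the oocytes cannot be told apart.

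**Figure D2:**
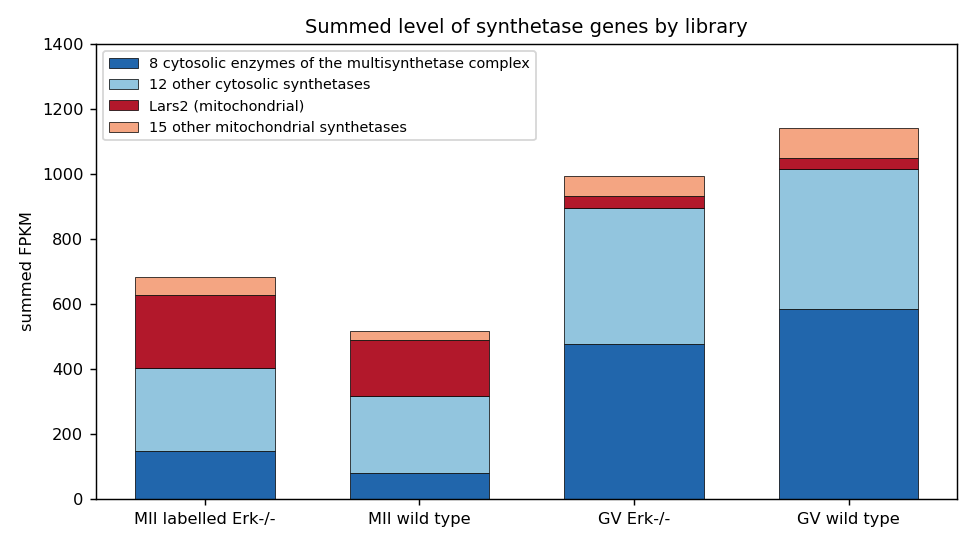
Summed FPKM of synthetase genes (y axis) in each library (x axis), stacked as 8 cytosolic enzymes of the multisynthetase complex, 12 other cytosolic genes, Lars2 and 15 other mitochondrial genes. The cytosolic blocks are smaller in both MII libraries (402 and 317 FPKM) than in the GV libraries (895 and 1015 FPKM), and the Lars2 block is larger.

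To count changes, the ratio log2((FPKM + 1)/(FPKM + 1)) was used for 9990 genes, those averaging at least 1 FPKM across the libraries, and 2-fold or more on that scale was called higher or lower. This scale understates the change of low genes. Of the synthetases, 19 cytosolic and 11 mitochondrial genes passed this filter. Yars, Hars2, Iars2, Mars2, Nars2 and Wars2 did not. A gene that passed through one library alone had to differ from the others, so the counts below describe the genes that passed. Where a fold is given for a gene, it is the plain ratio of its FPKM values.

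In wild-type oocytes most cytosolic synthetase messages were lower at MII than at GV. Of 19 genes, 14 were lower and none higher, with a median log2 ratio of -2.31, where 49.6% of all 9990 genes were lower and 20.6% higher (median -0.97). Rars had 1.26 FPKM in MII (0.786 to 1.70, the authors' bounds) and 98.4 FPKM in GV, 78.1-fold lower. Qars had 7.68 FPKM (6.56 to 8.80) in MII and 238 FPKM (230.0 to 248) in GV, 31.1-fold lower. Eprs, which charges both glutamate and proline, had 1.15 FPKM in MII and 39.5 FPKM in GV, 34.4-fold lower. Aars (alanine) was 19.0-fold lower (1.25 and 23.8 FPKM) and Sars (serine) 17.4-fold lower (1.20 and 20.8 FPKM). Hars (histidine) had 0.0485 FPKM in MII, with a lower bound of 0, and 19.4 FPKM in GV. Cars (cysteine), Mars (methionine) and Vars (valine) were listed at 0 in MII, against 34.1, 5.05 and 5.87 FPKM in GV. These 3 genes are called without a fold. Hars and Vars passed the filter only through wild-type GV, which favoured their calls.

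The lower cytosolic genes with the most message left were Iars (41.5 FPKM in MII and 122 in GV), Gars (glycine, 17.3 and 46.0 FPKM) and Kars (lysine, 15.7 and 34.1 FPKM). Under median-of-ratios scaling, which raised the median of all genes by 0.67 in this comparison, these 3 were no longer 2-fold apart (log2 ratios -0.72, -0.56 and -0.28). Dars (aspartate) was 5.56-fold lower and Nars (asparagine) 5.32-fold lower. The remaining 5 genes stayed within 2-fold of their GV level. Tars (threonine) had 20.7 FPKM (18.1 to 22.5) in MII and 20.2 FPKM (17.5 to 21.7) in GV. Wars (tryptophan) had 57.3 FPKM in MII and 49.9 in GV, and Lars (leucine) 5.77 and 10.3 FPKM. The subunits of the phenylalanyl enzyme, which work as a tetramer of 2 alpha and 2 beta chains, were both in this group, with Farsa at 25.4 FPKM in MII and 19.8 in GV and Farsb at 107 and 150 FPKM. Under scaling, Farsa and Wars passed 2-fold as higher (log2 ratios 1.14 and 1.01).

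The enzymes of the multisynthetase complex were lower in 7 of 8 cases in wild type (median -2.46) and the 11 tested enzymes outside it in 7 (median -2.26). Beside these and the class counts below, 49.6% of all genes were lower and 20.6% higher (median -0.97). The 8 complex members together stood at 79.8 FPKM in MII and 586 FPKM in GV, 13.6% of the GV level. Lars was the 1 member not called. Within the complex the leading message differed by stage, since Qars over Iars was 0.622 in MII labelled Erk-/-, 0.185 in MII wild type, 2.19 in GV Erk-/- and 1.95 in GV wild type. Iars shares a stretch of 1656 bases at 96.0% identity with the pseudogene Gm4849, so its values are uncertain. By structural class, 11 of the 15 class I enzymes tested were lower and 1 higher, and 11 of the 15 of class II lower and none higher. Eprs, which charges both glutamate and proline, was counted in class I alone. Among the scaffold genes, Aimp2 had 5.22 FPKM in MII and 38.3 in GV, and Aimp1 was listed at 0 in MII with 6.80 FPKM in GV. Eef1e1, the third scaffold, went the other way, with 68.6 FPKM in MII and a listed 0 in GV. In the libraries labelled Erk-/- Aimp2 had 4.18 FPKM in MII and 71.2 in GV, Aimp1 4.55 and 8.12 FPKM, and Eef1e1 31.8 and 11.7 FPKM.

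Among mitochondrial genes that passed the filter, 8 of 11 were lower in wild-type MII and Lars2 alone was higher (median -1.65). Over all genes 49.6% were lower and 20.6% higher (median -0.97). Lars2 had 173 FPKM (162 to 174) in MII and 34.7 FPKM (31.7 to 36.8) in GV, 4.98-fold higher. Gene-level FPKM does not show which exons the fragments came from. Rn45s, the ribosomal RNA precursor gene and given here as a measure of rRNA in a library, had 560 FPKM in MII labelled Erk-/-, 641 in MII wild type, 590 in GV Erk-/- and 118 in GV wild type. In wild type it was 5.41-fold higher in MII than in GV, beside the 4.98-fold of Lars2. It was 4.98-fold apart between the GV libraries, where Lars2 was 1.11-fold apart, and 1.05-fold apart between MII and GV in the libraries labelled Erk-/-, where Lars2 was 5.86-fold apart. Its part in the Lars2 values was not tested. Of the 8 lower genes, 5 were listed at 0 in MII, namely Cars2, Ears2, Pars2, Sars2 and Tars2, from 2.01 to 13.7 FPKM in GV. Pars2, Rars2, Sars2 and Tars2 passed the filter only through wild-type GV, which favoured their calls. Cars2 would not have passed without wild-type GV either, which favoured its call. Rars2 had 0.936 FPKM in MII and 14.9 in GV, 15.9-fold lower. Aars2 was 9.03-fold lower (0.361 and 3.26 FPKM). Vars2 had 0.0622 FPKM in MII, with a lower bound of 0, and 1.84 FPKM in GV. Fars2 had 22.4 FPKM in MII (20.1 to 24.7) and 40.9 in GV (37.4 to 44.5), a ratio short of 2-fold.

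In the libraries labelled Erk-/-, fewer cytosolic genes met the 2-fold rule. At MII, 11 of 19 were lower than at GV and none higher (median -1.45), where 35.6% of all genes were lower and 22.9% higher (median -0.26). Of the 14 cytosolic genes lower in wild type, 10 (71.4%) were lower here, and these were 90.9% of the 11. Over all genes 2664 were lower in both, 53.8% of the 4952 lower in wild type and 74.8% of the 3560 lower here. Gars, Iars, Kars and Vars were called in wild type and not here, and Farsa here and not in wild type. Both counts use different libraries, but whether the numbers differ beyond chance was not tested. Rars had 8.98 FPKM in MII and 116 FPKM in GV, 12.9-fold lower. Qars had 40.1 FPKM (37.2 to 43.0) in MII and 180 FPKM (173 to 189) in GV, 4.49-fold lower. Sars was the most reduced of those above 0 in both libraries, with 2.14 FPKM in MII and 49.4 FPKM in GV, 23.1-fold lower. Cars was 13.6-fold lower (1.55 FPKM in MII and 21.0 in GV), Aars 11.0-fold (1.77 and 19.5 FPKM), Hars 9.38-fold (0.199 and 1.86 FPKM) and Eprs 7.21-fold (2.54 and 18.4 FPKM). Nars was 6.62-fold lower (10.7 and 70.8 FPKM), Dars 6.29-fold (4.73 and 29.7 FPKM) and Mars 6.07-fold (1.17 and 7.12 FPKM). The genes within 2-fold included most of those with the highest levels at MII. Iars had 64.5 FPKM in MII and 82.2 in GV, Wars 43.6 and 35.0 FPKM, Gars 26.5 and 35.7 FPKM, Kars 21.7 and 37.5 FPKM, and Tars 21.4 and 19.4 FPKM. Lars had 5.24 and 4.62 FPKM, and Vars was listed at 0 in MII with 0.834 FPKM in GV. Farsa had 8.71 FPKM in MII and 25.6 FPKM in GV, 2.94-fold lower, beside Farsb at 136 and 140 FPKM. The level ratio of Farsb over Farsa was 15.6 in MII labelled Erk-/-, 4.21 in MII wild type, 5.47 in GV Erk-/- and 7.56 in GV wild type.

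Of the mitochondrial genes tested, 4 of 11 were lower at MII in the libraries labelled Erk-/- and 2 were higher (median 0.00), shares near those of all genes (35.6% and 22.9%). Lars2 was again higher, with 224 FPKM in MII and 38.3 FPKM (34.9 to 40.9) in GV, 5.86-fold. Cars2, also called higher, had 1.99 FPKM in MII and 0.0695 FPKM in GV. Aars2 was 10.5-fold lower (0.653 and 6.86 FPKM) and Vars2 2.88-fold lower (1.46 and 4.22 FPKM). Ears2 and Tars2 were listed at 0 in MII, with 15.5 and 3.18 FPKM in GV. Ears2 and Vars2 passed the filter only through Erk-/- GV, which favoured their calls. Cars2 would not have passed without MII labelled Erk-/-, which favoured its higher call. Pars2 and Sars2, both lower in wild type, had 0.263 and 0.0519 FPKM in MII and were listed at 0 in GV, and Rars2 was listed at 0 in both. Fars2 had 48.6 FPKM in MII and 26.1 in GV, and Yars2 3.33 and 4.65 FPKM, neither past the rule.

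**Figure D3:**
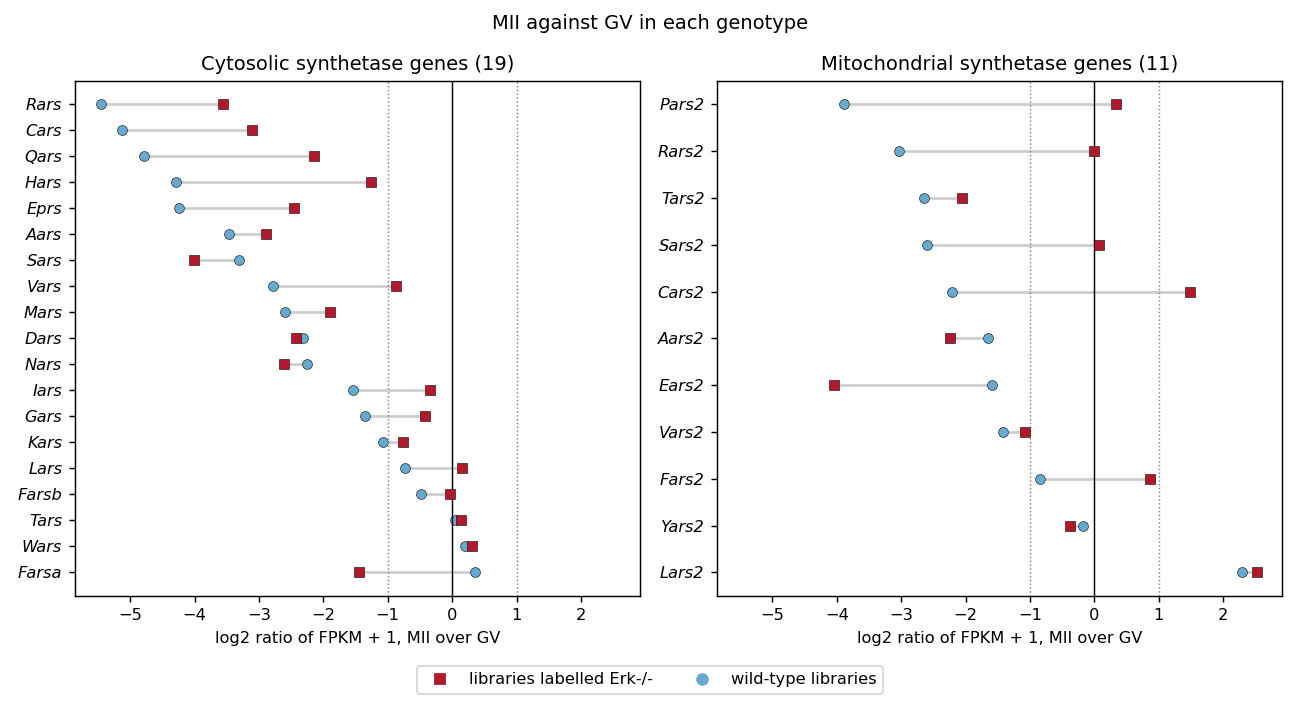
log2 ratio of FPKM + 1, MII over GV (x axis), for the 19 cytosolic and 11 mitochondrial genes tested; red squares are the libraries labelled Erk-/-, blue circles the wild-type libraries, and dotted lines mark 2-fold. Rars, Qars and Eprs have the square to the right of the circle, Tars and Wars have both marks near 0, and Lars2 is beyond 2-fold higher with both marks (log2 ratios 2.52 and 2.28).

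At MII, more synthetase genes were higher than lower in the library labelled Erk-/- against wild type. Of the 19 cytosolic genes, 4 were higher and 1 lower (median 0.44), and of the 11 mitochondrial genes 4 were higher and none lower (median 0.34). Over all genes 31.4% were higher and 7.43% lower (median 0.31), so the share of synthetases called higher was near that of all genes. After median-of-ratios scaling the medians were 0.05 for cytosolic, 0.11 for mitochondrial and 0 for all genes. Qars had 40.1 FPKM in the library labelled Erk-/- and 7.68 FPKM in wild type, 5.22-fold higher. Rars had 8.98 FPKM (7.28 to 10.6) and 1.26 FPKM, 7.12-fold higher. Cars and Mars had 1.55 and 1.17 FPKM in the library labelled Erk-/- and were listed at 0 in wild type. Farsa, the 1 lower gene, had 8.71 FPKM and 25.4 FPKM, 2.92-fold lower. Eprs had 2.54 and 1.15 FPKM, a 2.21-fold ratio that fell short on the scale with 1 added.

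Of the mitochondrial genes at MII, Fars2 had 48.6 FPKM (44.6 to 52.5) in the library labelled Erk-/- and 22.4 FPKM in wild type, 2.17-fold higher. This call was lost under median-of-ratios scaling (log2 ratio 0.57), which moved the median of all genes by -0.31. Vars2 had 1.46 and 0.0622 FPKM, and Cars2 and Yars2 had 1.99 and 3.33 FPKM in the library labelled Erk-/- and a listed 0 in wild type. Cars2 would not have passed the filter without that library labelled Erk-/-, which favoured its call. Lars2, at 224 and 173 FPKM, was 1.30-fold apart. The scaled split at MII was 7 higher and 2 lower of the 30 synthetases tested, against 8 and 1 as deposited. Of all 9990 genes tested, 2462 were higher and 1704 lower after scaling, against 3139 and 742 as deposited. The higher ones were thus 59.1% of the genes called after scaling and 80.9% before.

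At GV more synthetase genes were lower than higher, as was also the case for all genes. In Erk-/- oocytes 4 of 19 cytosolic genes were lower than in wild type and 1 higher (median -0.33), and 4 of 11 mitochondrial genes were lower and 2 higher (median -0.59). Over all genes 22.9% were lower and 18.4% higher (median -0.06), so the cytosolic share of lower genes was near the background. Hars had 1.86 FPKM (1.17 to 2.52) in Erk-/- GV and 19.4 FPKM (16.3 to 20.7) in wild-type GV, 10.4-fold lower. Vars was 7.03-fold lower (0.834 and 5.87 FPKM). Eprs (18.4 and 39.5 FPKM) and Lars (4.62 and 10.3 FPKM) were 2.15-fold and 2.23-fold lower, and neither was called after scaling. Sars was higher, with 49.4 FPKM (46.3 to 52.5) and 20.8 FPKM (19.2 to 22.6), 2.37-fold. Among mitochondrial genes, Pars2, Rars2 and Sars2 were listed at 0 in Erk-/- GV, against 13.7, 14.9 and 5.07 FPKM in wild-type GV, and Cars2 had 0.0695 and 3.63 FPKM. Ears2, which charges mitochondrial tRNA with glutamate, was 7.74-fold higher (15.5 and 2.01 FPKM). Yars2 had 4.65 FPKM in Erk-/- GV and 0.132 FPKM in wild type, with a lower bound of 0. Hars, Vars, Pars2, Rars2 and Sars2 passed the filter only through wild-type GV, and Ears2 and Yars2 only through Erk-/- GV. Cars2 would not have passed without wild-type GV either. The filter itself favoured these calls, which are descriptions only.

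**Figure D4:**
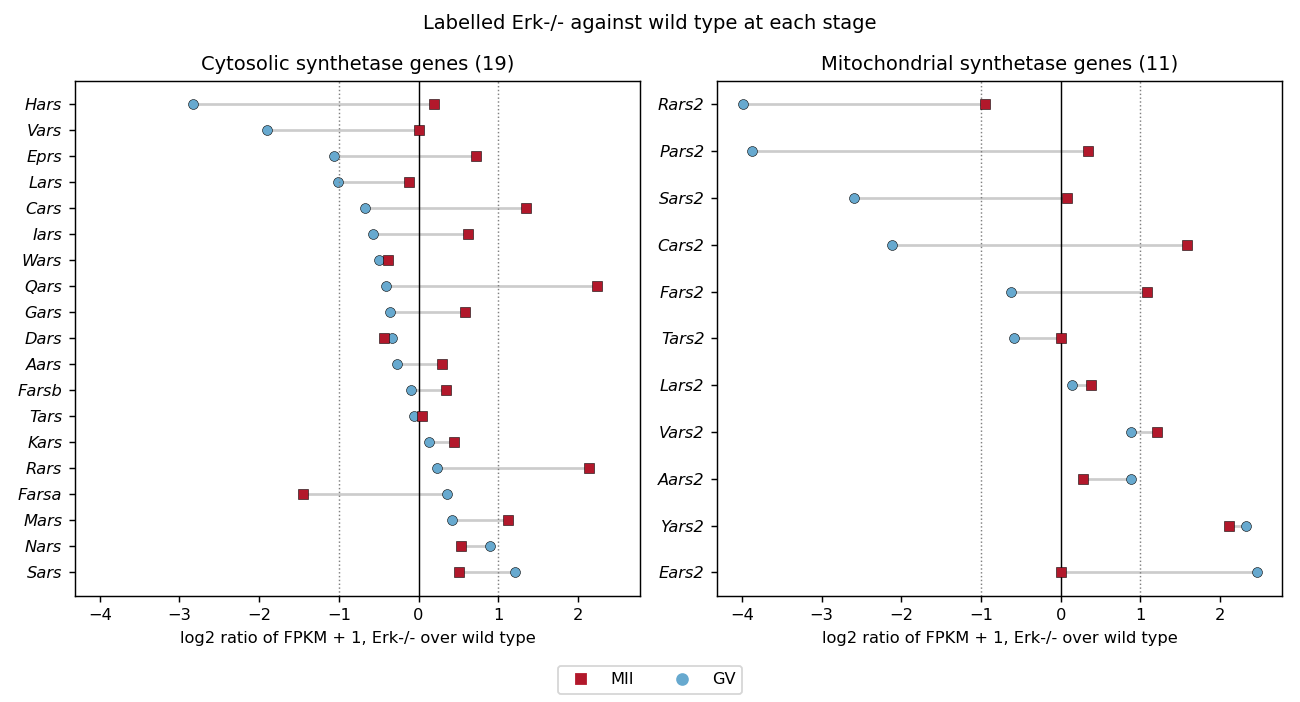
log2 ratio of FPKM + 1, labelled Erk-/- over wild type (x axis), for the 19 cytosolic and 11 mitochondrial genes tested; red squares are MII, blue circles GV, and dotted lines mark 2-fold. Qars and Rars are beyond 2-fold higher at MII (log2 ratios 2.24 and 2.14) and within 2-fold at GV, Hars is beyond 2-fold lower at GV alone, and Pars2, Rars2 and Sars2 are at the left at GV.

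The maturation ratio of the libraries labelled Erk-/- minus that of wild type was positive by 2-fold or more in 7 of 19 cytosolic genes and negative in 1 (median 0.70), and positive in 5 of 11 mitochondrial genes and negative in 1 (median 0.59). Over all genes 41.2% were positive and 18.8% negative by that much (median 0.59), so the positive share of synthetases was near that of all genes, and the negative share (2 of 30) was below it. After median-of-ratios scaling the medians were 0.32 for the cytosolic, 0.49 for the mitochondrial and 0.10 for all genes. Hars (log2 difference 3.03), Qars (2.65), Cars (2.02), Rars (1.91), Vars (1.90), Eprs (1.79) and Iars (1.19) were the positive cytosolic genes. For Hars and Vars the GV libraries differed more than the MII libraries. For Qars, Rars and Cars the GV libraries were within 2-fold of each other. Of these 7, Iars was not called after scaling (0.58). Of the 8 complex enzymes 4 were positive and none negative (median 1.04), against 3 and 1 of the 11 other cytosolic genes (median 0.44). After scaling these medians were 0.58 for the complex and -0.18, a turned sign, for the others. Farsa was the negative one (-1.80). The positive mitochondrial genes were Pars2 (4.22), Cars2 (3.69), Rars2 (3.04), Sars2 (2.67) and Fars2 (1.71), of which Fars2 alone was above 0 in all 4 libraries, and Ears2 was negative (-2.46). Hars, Vars, Pars2, Rars2 and Sars2 passed the filter only through wild-type GV, which favoured a positive difference. Cars2 passed only with both wild-type GV and MII labelled Erk-/-, which also favoured a positive difference. Ears2 passed only through Erk-/- GV, which favoured a negative one.

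Promoters were examined because synthetase genes of the cytosolic set are among those known to be induced by ATF4, the transcription factor of the amino acid response, through a composite C/EBP-ATF site. RefSeq promoter sequences (GRCm38.p6, 250 bases before to 50 bases after a gene's start) were matched for 27 of the 36 genes. The core TTGCATCA, or TGATGCAA on the opposite strand, was present in 4 of 13 cytosolic and 0 of 14 mitochondrial genes, and in 0.895% of all 32851 promoters in the table. The 4 are Aars (chr8:111033592-111033891, plus strand), Iars (chr13:49681880-49682179, plus strand), Tars (chr15:11399609-11399908, minus strand) and Yars (chr4:129189653-129189952, plus strand). They are shown 5′ to 3′ with the core in capitals, beside Lars2 (chr9:123366677-123366976, plus strand), the gene that was higher at MII, in which the core does not occur.
Aars: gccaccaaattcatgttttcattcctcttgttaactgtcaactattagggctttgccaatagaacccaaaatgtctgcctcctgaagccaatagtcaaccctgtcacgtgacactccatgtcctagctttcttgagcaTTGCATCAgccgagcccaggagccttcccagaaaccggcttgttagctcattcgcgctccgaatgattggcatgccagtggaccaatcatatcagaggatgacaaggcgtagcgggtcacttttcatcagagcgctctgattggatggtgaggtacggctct
Iars: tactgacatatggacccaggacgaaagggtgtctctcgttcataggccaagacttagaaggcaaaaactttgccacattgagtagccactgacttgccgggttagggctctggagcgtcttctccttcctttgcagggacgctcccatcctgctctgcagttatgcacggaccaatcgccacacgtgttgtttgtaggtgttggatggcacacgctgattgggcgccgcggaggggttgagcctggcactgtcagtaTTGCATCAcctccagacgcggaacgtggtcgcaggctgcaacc
Tars: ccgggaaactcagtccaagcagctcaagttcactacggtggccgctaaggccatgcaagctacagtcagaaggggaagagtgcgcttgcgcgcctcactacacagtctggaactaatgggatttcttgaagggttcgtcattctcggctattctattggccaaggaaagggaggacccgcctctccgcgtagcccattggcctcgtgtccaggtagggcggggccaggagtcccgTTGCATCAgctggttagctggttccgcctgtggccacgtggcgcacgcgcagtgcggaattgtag
Yars: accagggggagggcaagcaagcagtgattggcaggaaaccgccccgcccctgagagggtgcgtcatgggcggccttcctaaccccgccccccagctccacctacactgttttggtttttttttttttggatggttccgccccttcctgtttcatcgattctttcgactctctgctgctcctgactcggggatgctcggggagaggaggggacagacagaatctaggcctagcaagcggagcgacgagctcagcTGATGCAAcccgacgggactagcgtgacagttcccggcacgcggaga
Lars2: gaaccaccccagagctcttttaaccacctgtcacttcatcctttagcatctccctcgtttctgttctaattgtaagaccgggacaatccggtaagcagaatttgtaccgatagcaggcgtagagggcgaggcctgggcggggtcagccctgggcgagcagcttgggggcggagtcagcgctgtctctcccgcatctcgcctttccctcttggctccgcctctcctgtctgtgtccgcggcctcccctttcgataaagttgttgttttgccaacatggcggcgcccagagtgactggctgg
The 4 genes did not move alike in wild-type maturation. Aars was 19.0-fold lower at MII and Iars 2.95-fold lower, Tars was at 103% of its GV level, and Yars had 0.0326 FPKM in MII and 2.49 FPKM in GV. The E-box CACGTG, which reads the same on both strands, was found in 4 of 13 cytosolic and 1 of 14 mitochondrial promoters (7.15% of all). CCAAT or ATTGG was found in 7 and 6 (37.4% of all), and the palindromic NRF1 site in none (0.971% of all). These matches describe letters in the window and not binding.

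Genes of the amino acid response itself were mixed during maturation. Of 23 listed, 16 passed the filter, and 6 were higher and 6 lower in wild-type MII than in GV, and 5 and 5 in the libraries labelled Erk-/-. Of all genes 20.6% were higher and 49.6% lower in wild type, and 22.9% and 35.6% in the libraries labelled Erk-/-. Eif2ak4, which encodes GCN2, the kinase that senses uncharged tRNA, had 58.3 FPKM in MII labelled Erk-/-, 82.3 in MII wild type, 12.2 in GV Erk-/- and 21.4 in GV wild type. The amino acid transporter subunit Slc3a2 had 118, 245, 21.2 and 54.1 FPKM in this order, and Ppp1r15a, which restores translation after stress, 112, 157, 17.8 and 29.0 FPKM. Both were higher at MII in each genotype. Atf4 had 77.7, 25.9, 197 and 101 FPKM, and Ddit3, one of its targets and a neighbour whose mm9 locus overlaps Mars by 68 bases, 5.29, a listed 0, 97.6 and 20.3 FPKM. Atf4 was called higher in the MII library labelled Erk-/- than in wild type (log2 ratio 1.55) and just missed the rule at GV (0.95). Ddit3 was 4.81-fold higher in Erk-/- GV than in wild-type GV. Over the list, 6 of 16 were higher and 1 lower in the MII library labelled Erk-/-, and 4 were higher and 1 lower in Erk-/- GV. Of all genes 31.4% were higher and 7.43% lower at MII, so the counts at MII were near the background, and 18.4% were higher and 22.9% lower at GV.

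Genes that make or mature tRNA were mostly lower in wild-type MII, 13 of 15 tested, with 1 higher (median -2.55), where 49.6% of all genes were lower and 20.6% higher. Ssb, the La protein that binds new tRNA transcripts, had 24.6 FPKM in MII labelled Erk-/-, 1.87 in MII wild type, 186 in GV Erk-/- and 236 in GV wild type. Rpp21, a subunit of RNase P, had 6.31 FPKM, a listed 0, 55.7 FPKM and 46.0 FPKM in that order. In the libraries labelled Erk-/- 8 of 15 were lower and 2 higher (median -1.86), where 35.6% of all genes were lower and 22.9% higher. Rpp30, another RNase P subunit, was one of the lower genes (0.916 FPKM in MII and 53.4 in GV). Of the partners of charging, 7 of 12 tested were lower and none higher in wild-type MII, and the median (-1.09, or -0.38 after scaling) was close to that of all genes (-0.97, or -0.30 after scaling). In the libraries labelled Erk-/- 6 of 12 were lower and 4 higher. Aarsd1, which edits mischarged tRNA, had 0.388 FPKM in MII labelled Erk-/-, a listed 0 in MII wild type, 18.8 in GV Erk-/- and 39.6 in GV wild type. Trnt1, which adds the CCA end to tRNA, had 21.2, 19.5, 8.83 and 15.4 FPKM.

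Ribosomal protein genes, the other large group of translation genes, were taken by symbol. The rule was Rpl or Rps and a digit for cytosolic genes, and Mrpl or Mrps and a digit for mitochondrial ones. It can also take in genes that are not ribosomal proteins, such as kinases with Rps6k symbols. The cytosolic synthetases had a smaller median change in wild-type maturation (-2.31 against -3.27 over 85 genes of the cytosolic ribosomal set, of which 71 were lower and 3 higher). The mitochondrial synthetases likewise had -1.65 against -2.61 over 75 mitochondrial ribosomal protein genes, of which 50 were lower and 6 higher. Of all genes 49.6% were lower and 20.6% higher in this comparison (median -0.97). In the libraries labelled Erk-/- the medians were -1.45 against -2.02 for the cytosolic genes and 0.00 against -0.73 for the mitochondrial ones. The median of all genes there was -0.26. At MII, labelled Erk-/- against wild type, the set medians were 0.44 against 1.11 and 0.34 against 0.76, and after scaling 0.05 against 0.59 and 0.11 against 0.41. The median of all genes was 0.31 there, and 0 after scaling. These are descriptions of sets of unequal size and level, and no difference between sets was tested.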

How the data were processed

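Messenger RNA of 4 mouse oocyte libraries was sequenced as read pairs on an Illumina HiSeq, per the labels' protocols. The authors deposited gene-level FPKM and its confidence bounds (lower and upper), per the file headers. CASAVA 1.8, TopHat and genome build mm9 are named in the submitters' processing notes. Not given in the sources used here are the FPKM program, its annotation, the confidence level, strandedness and how multiply mapped reads were handled. FPKM holds no counts, so absolute depth is unknown. The bounds cover uncertainty within a library; among synthetase values of at least 10 FPKM their median half-width was 8.76% of the value. In 7 of 144 values, among them Farsb in all 4 libraries, the FPKM lay above its own upper bound, and no bounds are quoted there.

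FPKM was summed per symbol (23813 rows, 23309 symbols, 260 symbols on several rows, no synthetase among them). Ratios were log2 of FPKM plus a pseudocount of 1, over 9990 genes averaging at least 1 FPKM, called at 2-fold, in 5 comparisons. They were run on simulated data with known folds beyond the 2-fold rule, in genes averaging at least 10 FPKM with no listed zeros. That run checks only that the code calls such folds, and not the low genes or listed zeros. With 1 library per group there are no p-values. All 36 members are named; of the other lists, genes averaging at least 10 FPKM and called, at most the 3 largest either way per list and comparison. Aimp1, Eif2ak4 and Rn45s fall outside this rule and were chosen after their values were seen. Loci are mm9, with 1 added to each start, because 9170 of 21279 gene lengths equalled end minus start and 558 that plus 1. The members and lists were chosen with earlier results of these data known. Pseudogenes aligned with blastn 2.17.0 (at least 500 bases at 85% identity) to Iars (Gm4849, 1656 bases at 96.0%), Kars, Vars and Hars2, and reads of Aars, Mars, Yars and Iars2 can overlap a neighbouring gene (Exosc6 by 532 bases for Aars), so these values are uncertain. Python 3.11.15 and pandas 2.3.3 were used. Alternatives were a pseudocount of 0.1, median-of-ratios scaling, no filter, a mean of at least 10 FPKM, no genes listed at 0, and no symbols on several rows.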

Additional observations from a re-analysis of the deposited data

Results flagged for a closer look

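Of the synthetases, 5 genes had log2 maturation ratios (MII over GV) of opposite sign in the genotypes and at least 2-fold apart. Over all genes 41.2% differed that much in the positive direction and 18.8% in the negative. How many of those had opposite signs was not counted, so the 5 cannot be called unusual. With 1 library per group the difference was not tested for any of them. Farsa had a difference (labelled Erk-/- minus wild type) of -1.80, from 8.71 FPKM in MII and 25.6 in GV in the libraries labelled Erk-/-, against 25.4 in MII and 19.8 in GV in wild type. Fars2 had a difference of 1.71, from 48.6 FPKM in MII and 26.1 in GV, against 22.4 in MII and 40.9 in GV. The difference was 3.69 for Cars2, 4.22 for Pars2 and 2.67 for Sars2, and each of these 3 genes was listed at 0 in a library: all 3 in wild-type MII, and Pars2 and Sars2 in Erk-/- GV. In the MII library labelled Erk-/-, Pars2 had 0.263 FPKM and Sars2 0.0519 FPKM, each with a lower bound of 0. Their positive sign there (log2 ratios 0.34 and 0.07) was near the floor, with bounds not apart. The bounds of Farsa in wild-type MII and GV (log2 ratio 0.35) were not apart either. For Cars2, Pars2 and Sars2 the filter itself favoured a positive difference.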

How the results depend on the processing

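No paired analysis was possible because each group had 1 library, and for the same reason no library could be left out. A cytosolic-minus-mitochondrial difference of medians was counted as unmoved within 0.29, the median half-width of a log2 ratio by the authors' bounds. That difference rests on few mitochondrial genes (2 at a mean of at least 10 FPKM, 4 above 0 in every library) and its cause was not tested. As deposited it was -0.67 for wild-type maturation, -1.45 for maturation in the libraries labelled Erk-/-, 0.26 between genotypes at GV, 0.10 between genotypes at MII, and 0.10 for maturation ratios subtracted between genotypes (the difference). With a pseudocount of 0.1 it turned to 1.40 for wild-type maturation and to -0.79 for the difference of maturation ratios, and was -2.50 for maturation labelled Erk-/-; 5 synthetases were then higher at GV (3 as deposited) and 2 lower at MII (1). Under median-of-ratios scaling it was -0.21 for wild-type maturation, with 3 higher synthetases (1 as deposited), and 2 were lower at MII. The median of all genes moved by 0.67 in wild-type maturation, 0.18 in maturation labelled Erk-/-, 0.06 at GV, -0.31 at MII and -0.49 in the difference. With no filter it was -1.10 for wild-type maturation (2 higher), -0.34 at GV, a turned sign, and 0.51 for the difference. At a mean of at least 10 FPKM, which keeps 17 synthetases, it was -2.98 for wild-type maturation (11 lower, 22 as deposited), -3.83 for maturation labelled Erk-/- (1 higher, 9 lower), -0.031 at GV (1 higher, 1 lower), -0.22 at MII (4 higher) and -0.53 for the difference (6 positive, 1 negative), the last 3 with a turned sign, and the mitochondrial median of wild-type maturation turned to 0.72. Without genes listed at 0, which keeps 20, wild-type maturation had 13 lower, maturation labelled Erk-/- 1 higher, GV 1 higher and 3 lower with a difference of -0.81 and a mitochondrial median of 0.51, MII 4 higher with -0.34, and the difference of maturation ratios 6 positive and 1 negative. Leaving out symbols on several rows changed nothing here. Of 785 single-gene values recomputed, 760 kept their call, 8 lost it, 17 gained it and 0 changed sign while called. Settings that only choose which genes or rows are kept leave a synthetase's own ratio as it is. Those values could not change and are no check. Where a call could change, scaling kept 137, lost 8 and gained 5, and the pseudocount of 0.1 kept 138 and gained 12. Single libraries, unknown absolute depth and listed zeros limit the mitochondrial genes most.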
